A study of Mus musculus with 10 samples.

Results

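Cathepsins, the proteases of the lysosome and secretory granule, and the cystatins that inhibit many of them were followed here through 10 genes: Ctsw, Ctsc, Ctsb, Ctsd, Ctsl, Ctsk, Ctsz and Ctsh for proteases, and Cst7 and Cst3 for inhibitors. The genes were taken by name, with every probe set annotated to exactly 1 of those symbols. This gave 20 probe sets for 10 of the 18193 genes on the array that had a probe set of a single symbol. RNA was measured on 1-colour Affymetrix arrays of the mouse transcriptome. There were 10 tumors, all grown from B16, a melanoma cell line from C57BL/6 mice. The 5 wild-type tumors and the 5 tumors labelled Bach2-deficient were both on a C57BL/6 background, and no drug or other agent is named for either group. The labels do not say whether the host, the tumor cells or both lacked Bach2, which encodes a transcriptional repressor of lymphocytes, and they give no age. Whole tumors were broken up mechanically and their total RNA extracted, so each value mixes melanoma cells with everything else in the tumor. The labels do not state that each tumor is from its own mouse, so the spread behind the p-values may be technical.

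Most cathepsins are cysteine proteases of the papain type. They are made as inactive precursors and cut to their active form in the acidic lysosome. Macrophages and dendritic cells carry them in quantity for breaking down what they engulf, while cytotoxic T cells and NK cells use a smaller set linked to their granules. In those granules cathepsin C, a dipeptidyl peptidase, removes a short leader from granzymes and makes them active, and cystatin F, the product of Cst7, holds cathepsin C in check. The comparison asks how the genes of cytotoxic cells (Ctsw, Ctsc and Cst7) and those of macrophage and stromal proteases differ between tumors of the 2 labelled groups.

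All 10 genes read higher on average in the Bach2-deficient tumors, beside 43.2% of all genes. Of the 10 genes 6 rose and 0 fell. A gene rose or fell where its limma adjusted p was under 0.05 over all 18193 genes, of which 16.3% rose and 12.4% fell, 28.7% in all. The median change of the 10 genes was 0.44 on the log2 scale (Bach2-deficient minus wild type), beside -0.06 over all genes. The groups did not overlap, with every Bach2-deficient tumor above every wild-type tumor, for 5 of the 10 genes and for 11.2% of all genes. In their brightest probe sets Ctsw and Cst7 rose by more than 3, Ctsc and Ctsh by about 1, and Cst3 and Ctsz by less. Ctsb, Ctsd, Ctsl and Ctsk did not pass, though Ctsk (0.35) and Ctsb (0.32) differed by nearly as much as Ctsz (0.36). In whole tumors, more cells of a type and more RNA per cell cannot be told apart, nor can fewer cells and less RNA per cell.

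**Figure D1:**
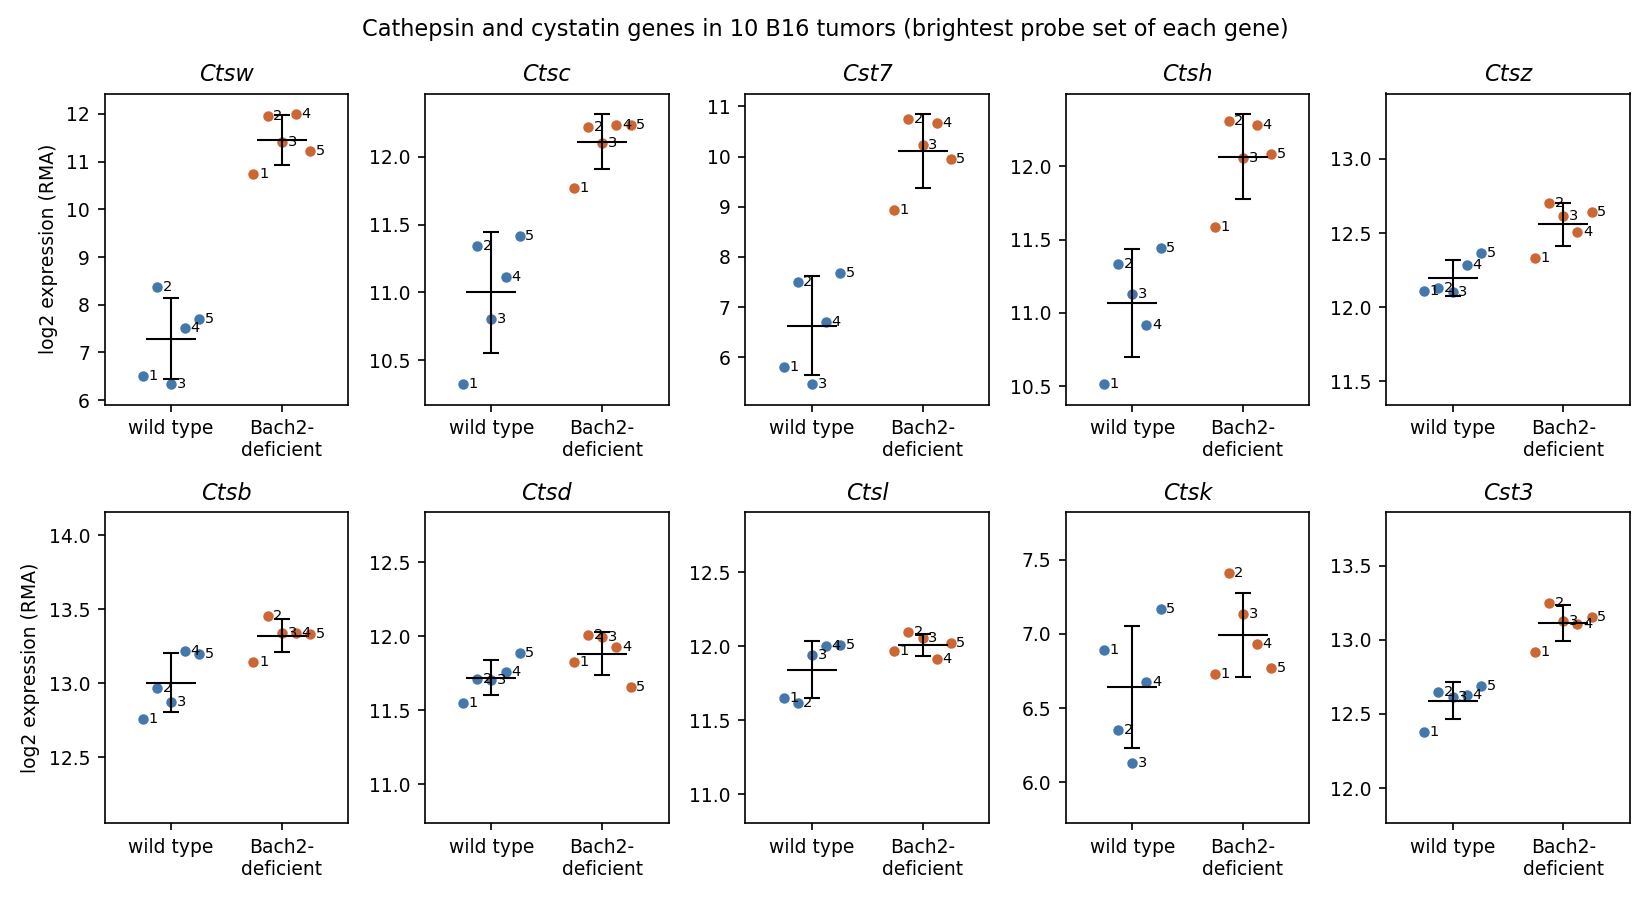
Each panel plots 1 gene: the log2 expression value (RMA, vertical axis, each panel with its own range) of the 5 wild-type and 5 Bach2-deficient tumors, numbered by replicate, with the group mean (bar) and SD (whiskers). The groups stand apart in Ctsw, Ctsc, Cst7, Ctsh and Cst3 and overlap in Ctsz, Ctsb, Ctsd, Ctsl and Ctsk.

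Several features of the arrays moved with genotype. The 10 arrays had medians between 5.799 and 5.884. The poly-A spike controls, bacterial RNAs added before labelling, read 2.07 lower on the log2 scale on the Bach2-deficient arrays (exact permutation p = 0.00794, the smallest the design allows, 2-sided). The 3′ minus 5′ difference of the Gapdh control probe sets, a sign of RNA quality, was 0.59 ± 0.044 in wild type and 0.59 ± 0.025 in the Bach2-deficient group (SD, n = 5 each), and that of the actin control differed by -0.26 (exact permutation p = 0.0556). Xist, a female-specific RNA, was high in all 5 wild-type tumors and in Bach2-deficient replicate 2, and low in the other 4 tumors. Bach2 itself differed by -1.07 (SE 0.38, limma adjusted p = 0.0551). Melanocyte markers fell for 6 of 14 genes and rose for 0, with list means of 11.66 to 11.84 in wild type and 10.84 to 11.67 in the Bach2-deficient group. The hybridization controls, added after labelling, differed by -0.58 (exact permutation p = 0.00794). When each tumor's melanocyte list mean entered the fit, 0 of the 10 genes passed, beside 41 rises and 22 falls over all genes, with changes of 3.31 for Ctsw, 2.26 for Cst7 and 0.76 for Ctsc. Splitting the fit by Xist level compares Bach2-deficient replicate 2 alone with the 5 wild-type arrays. There 3 of the 10 passed (Ctsw, Cst7 and Cst3), beside 1030 rises and 387 falls over all genes. That lone array is assumed to vary like the others. The part of the spike and actin control differences was not tested.

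Ctsw encodes cathepsin W, a papain-type protease found almost wholly in cytotoxic T cells and NK cells. Its log2 values were 6.51, 8.37, 6.34, 7.52 and 7.70 in wild-type replicates 1 to 5 and 10.75, 11.96, 11.40, 11.99 and 11.21 in the Bach2-deficient ones. The groups lay more than 2 log2 units apart, with wild-type replicates 1 and 3 at the bottom and Bach2-deficient replicate 1 lowest in its group. The mean rose from 7.29 ± 0.85 to 11.46 ± 0.52 (SD, n = 5 each), a change of 4.17 (SE 0.40, limma adjusted p = 0.000195) or 18.05-fold. It was the largest change of the 10 genes.

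Cst7 encodes cystatin F, an inhibitor made by leukocytes and carried to the lysosome, where it acts on cathepsin C and related proteases. Wild-type replicates 1 to 5 read 5.81, 7.50, 5.47, 6.70 and 7.67, and the Bach2-deficient ones 8.93, 10.74, 10.24, 10.68 and 9.95. The groups did not overlap, and the low tumors were the same as for Ctsw: wild-type replicates 1 and 3, and Bach2-deficient replicate 1. The mean rose from 6.63 ± 0.98 to 10.11 ± 0.73 (SD, n = 5 each), a change of 3.48 (SE 0.49, limma adjusted p = 0.000867) or 11.1-fold.

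Ctsc encodes cathepsin C, which activates granzymes and is also abundant in myeloid cells. Its brightest probe set read 10.33, 11.34, 10.80, 11.11 and 11.42 in wild-type replicates 1 to 5 and 11.77, 12.22, 12.10, 12.23 and 12.23 in the Bach2-deficient ones. The groups did not overlap, and replicate 1 was the lowest tumor of each. The mean rose to 12.11 ± 0.20 from a wild-type mean with an SD of 0.45 (n = 5 each), a change of 1.11 (SE 0.20, limma adjusted p = 0.00309) or 2.16-fold. The other probe sets of Ctsc gave larger changes, 1.38 (SE 0.25) for 1446834_at and 2.54 (SE 0.26) for 1437939_s_at, both without overlap. So 3 of 3 probe sets rose, and the size of the rise depended on which was read.

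Within single arrays, Cst7 changed more than Ctsc. Cst7 minus Ctsc went from -4.37 ± 0.64 to -2.004 ± 0.56 (SD, n = 5 each), a shift of 2.37 (exact permutation p = 0.00794, adjusted over 20 differences p = 0.00882). The inhibitor's signal therefore moved up further than that of the protease it restrains. The shift stayed between 1.80, with the mean of each gene's probe sets, and 2.57 in 13 alternatives of probe set, normalization or left-out array. Differences within arrays were not run with the melanocyte list mean or the Xist level. These are shifts in the signal of 2 probe sets and give no ratio of molecules.

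The sequences before the start sites of Ctsc and Cst7, a protease and its inhibitor that rose together, are shown next to that of Ctsd, a lysosomal protease that did not pass. They are RefSeq windows of build GRCm38.p6, 250 bases before to 50 after the start, written 5′ to 3′ in the gene's own direction. Of the 10 genes, 7 had a window (Ctsc, Ctsd, Ctsl, Ctsk, Ctsz, Cst7 and Cst3); Ctsw, Ctsb and Ctsh had none in the table. Capitals mark matches to any of 6 motifs searched on both strands.
Ctsc promoter, chr7:88277835-88278134, + strand: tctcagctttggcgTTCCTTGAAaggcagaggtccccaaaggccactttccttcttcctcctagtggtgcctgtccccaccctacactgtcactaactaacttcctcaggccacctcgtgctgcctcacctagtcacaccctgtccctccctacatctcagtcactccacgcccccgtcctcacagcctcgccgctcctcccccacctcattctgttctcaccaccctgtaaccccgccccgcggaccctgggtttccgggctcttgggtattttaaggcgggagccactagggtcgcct
Cst7 promoter, chr2:150570165-150570464, + strand: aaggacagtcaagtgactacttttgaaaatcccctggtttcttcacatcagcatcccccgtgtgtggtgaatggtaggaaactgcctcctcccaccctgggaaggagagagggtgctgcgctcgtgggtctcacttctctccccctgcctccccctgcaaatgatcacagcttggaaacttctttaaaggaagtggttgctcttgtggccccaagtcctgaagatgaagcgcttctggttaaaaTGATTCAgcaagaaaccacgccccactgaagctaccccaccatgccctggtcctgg
Ctsd promoter, chr7:142387778-142388077, - strand: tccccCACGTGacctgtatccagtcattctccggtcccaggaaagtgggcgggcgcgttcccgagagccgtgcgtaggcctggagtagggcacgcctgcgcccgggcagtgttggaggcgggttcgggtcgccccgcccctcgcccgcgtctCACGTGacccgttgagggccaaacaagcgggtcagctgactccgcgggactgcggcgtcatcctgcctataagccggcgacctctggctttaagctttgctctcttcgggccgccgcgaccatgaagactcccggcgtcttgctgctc

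The 6 motifs were the AP-1 core TGANTCA, which lies within the longer MARE motif bound by BACH proteins with small MAF partners, the E-box CACGTG, which lies within the lysosomal CLEAR motif, the interferon-γ activated site TTCNNNGAA and the interferon response core (ISRE). Cst7 held 1 AP-1 core match, TGATTCA, starting 6 bases before the start site, and 7.81% of 32851 windows hold at least 1. Ctsc held 1 activated-site match, TTCCTTGAA, 236 bases before the start, and 8.30% of windows hold at least 1. Ctsd held 2 E-boxes, 245 and 98 bases before the start, and Ctsl held 1 at 236 bases, beside 7.15% of all windows with at least 1. The 7 windows held 0 MARE, CLEAR or interferon response core matches, motifs found in 0.00609%, 0.326% and 3.44% of all windows. A match describes letters in a window and shows no binding.

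Ctsh and Ctsz, both expressed by macrophages and other myeloid cells, also rose. Ctsh encodes cathepsin H, an aminopeptidase. It read 10.52, 11.33, 11.13, 10.92 and 11.44 in wild-type replicates 1 to 5 and 11.59, 12.31, 12.06, 12.28 and 12.08 in the Bach2-deficient ones. The groups did not overlap, though Bach2-deficient replicate 1 lay close above the highest wild-type tumor. The change was 1.00 (SE 0.20, limma adjusted p = 0.00444) or 1.99-fold, and the second probe set, 1443814_x_at, gave 1.11 (SE 0.21).

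Ctsz encodes cathepsin Z, a carboxypeptidase. The brightest of its 3 probe sets read 12.11, 12.13, 12.10, 12.28 and 12.36 in wild-type replicates 1 to 5 and 12.33, 12.70, 12.62, 12.51 and 12.64 in the Bach2-deficient ones. The groups overlapped at 1 point, where Bach2-deficient replicate 1 fell below wild-type replicate 5. The change was 0.36 (SE 0.10, limma adjusted p = 0.0218) or 1.29-fold. The call was lost without Bach2-deficient replicate 2, 3 or 5, with limma adjusted p up to 0.0617. Its other probe sets rose by 0.62 (1417868_a_at) and 0.65 (1417870_x_at), both without overlap.

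Ctsb, the broad lysosomal protease cathepsin B, lay at the edge of the threshold. Its brightest probe set, 1417490_at, read 12.76, 12.97, 12.88, 13.21 and 13.20 in wild-type replicates 1 to 5 and 13.15, 13.45, 13.34, 13.34 and 13.33 in the Bach2-deficient ones. Wild-type replicates 4 and 5 lay above Bach2-deficient replicate 1, so the groups overlapped. The difference was 0.32 (SE 0.11, 95% interval 0.07 to 0.57, limma adjusted p = 0.0576). Among its 5 probe sets, 2 passed over all 34945 probe sets: 1417491_at at 1.09 (SE 0.25, limma adjusted p = 0.00984) and 1417492_at at 0.81 (SE 0.25, limma adjusted p = 0.0392). Averaged over all 5, Ctsb passed (0.65, SE 0.16, limma adjusted p = 0.0139). With 1 array left out it passed without wild-type replicate 4 or 5 or Bach2-deficient replicate 1, and not in the other 7 fits.

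Across all 20 probe sets, 13 rose, 0 fell and every one pointed up, beside 14.1% of all probe sets that rose and 10.1% that fell. In each of the 5 genes with more than 1 probe set, the brightest gave the smallest change. The brightest probe set of Ctsb stood at the 99.7th percentile of level and its change was 0.32, while the probe set at the 79.6th percentile gave 1.09. Among 1001 genes with several probe sets whose brightest lay in the top 5% of level, 48.5% showed the same order. Among the 176 of those whose brightest probe set rose, 44.3% did. With few probe sets to a gene, that order can also arise without any link of level and change. How often it would was not computed, so no reading is drawn from these shares. Why the order arose in the 5 genes was not tested.

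**Figure D2:**
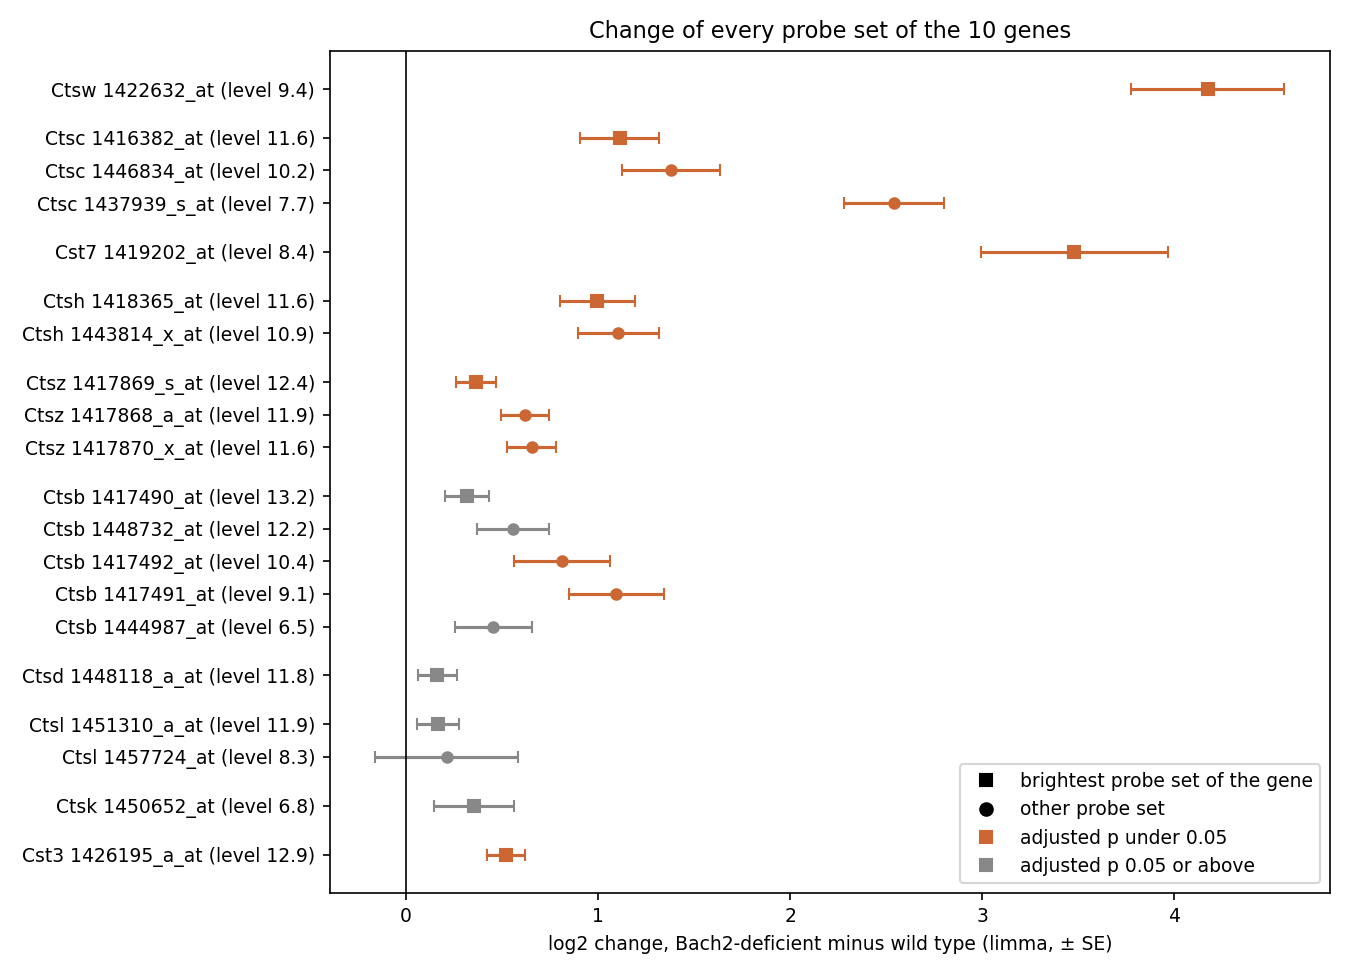
The horizontal axis gives the log2 change (Bach2-deficient minus wild type) with its SE for each of the 20 probe sets, grouped by gene and ordered from the brightest down, with the mean log2 level in brackets. Squares mark the brightest probe set of a gene and orange marks those past an adjusted p of 0.05 over all probe sets. All points lie to the right of 0, and Ctsb shows 0.32, 0.56, 0.81 and 1.09 as its level drops before 0.45 at the dimmest.

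Ctsd, Ctsl and Ctsk did not pass. Ctsd encodes cathepsin D, an aspartic protease of the lysosome. It read 11.55, 11.71, 11.70, 11.76 and 11.88 in wild-type replicates 1 to 5 and 11.83, 12.01, 12.00, 11.93 and 11.66 in the Bach2-deficient ones, with overlapping groups. The difference was 0.16 (SE 0.10, 95% interval -0.06 to 0.39, limma adjusted p = 0.247), so these arrays leave room for a change of up to about 0.39.

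Ctsl encodes cathepsin L, an endopeptidase made by many cell types, fibroblasts and tumor cells among them. Its brightest probe set read 11.65, 11.62, 11.94, 12.00 and 12.01 in wild-type replicates 1 to 5 and 11.97, 12.09, 12.06, 11.91 and 12.02 in the Bach2-deficient ones. The difference was 0.17 (SE 0.11, 95% interval -0.07 to 0.40, limma adjusted p = 0.258). Its second probe set, 1457724_at, differed by 0.21 with a wild-type SD of 0.92, well above the difference.

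Ctsk encodes cathepsin K, the collagen-cutting protease of osteoclasts, also made by activated fibroblasts. It read 6.89, 6.35, 6.13, 6.68 and 7.17 in wild-type replicates 1 to 5 and 6.73, 7.41, 7.13, 6.93 and 6.77 in the Bach2-deficient ones. The groups overlapped between 6.73 and 7.17, with 3 of 5 wild-type tumors below that stretch. The difference was 0.35 (SE 0.21, 95% interval -0.11 to 0.81, limma adjusted p = 0.228). On the same arrays 5 of 9 osteoclast-list genes rose, Dcstamp by 2.32 and Ocstamp by 1.63 among them. In wild type 5 of the 9 genes had means in the dimmest 30% of genes (a level under 4.98). Dcstamp (4.61) and Ocstamp (4.69) were among those, so the sizes of their rises are not exact. The list means were 5.72 to 6.13 in wild type and 6.47 to 7.35 in the Bach2-deficient group. Calcr, the calcitonin receptor gene, named outside the rule given below, lay in the dimmest 30% in both groups (3.02 and 3.12). Of 15 fibroblast genes 6 fell, Col6a3 by 2.28 and Col1a2 by 1.80 among them, and 1 rose, Thy1 by 3.32, which T cells express too. Their part in the Ctsk values was not tested.

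Cst3 encodes cystatin C, a secreted inhibitor made by most cells and strongly by dendritic cells and macrophages. It read 12.37, 12.65, 12.61, 12.63 and 12.69 in wild-type replicates 1 to 5 and 12.92, 13.25, 13.13, 13.10 and 13.15 in the Bach2-deficient ones. Replicate 1 was again the lowest tumor of each group, and the groups did not overlap. The change of 0.52 (SE 0.10, limma adjusted p = 0.00319) was 1.44-fold, small but several times the SD within groups of 0.12 each. Set against Ctsb in the same array, Cst3 shifted by 0.20 (exact permutation p = 0.00794, adjusted p = 0.00882). That order did not last: with the mean of each gene's probe sets the shift was -0.13 (exact permutation, adjusted p = 0.317).

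The granule genes were then set against the macrophage and stromal proteases within each array, which removes any shift of a whole array. Of 18 such differences (Ctsw, Ctsc or Cst7 minus Ctsb, Ctsd, Ctsl, Ctsk, Ctsz or Ctsh), 17 were higher in the Bach2-deficient tumors in exact permutation tests adjusted over 20 differences. Ctsb, Ctsd, Ctsl, Ctsz and Ctsh were read at the 96.0th to 99.7th percentile of probe set level and Ctsk at the 56.3rd. Ctsc stood at the 95.9th, Ctsw at the 81.7th and Cst7 at the 72.6th. The part of level in these shifts was not tested, and the 18 differences share genes. Ctsw minus Ctsb went from -5.71 ± 0.75 to -1.86 ± 0.43 (SD, n = 5 each), a shift of 3.86. The shifts of Ctsw ran from 3.18 against Ctsh to 4.01 against Ctsd, and those of Cst7 from 2.48 against Ctsh to 3.32 against Ctsd. Ctsc shifted by 0.79 against Ctsb, 0.95 against Ctsd and 0.94 against Ctsl. Ctsc minus Ctsk shifted by 0.76 (exact permutation, adjusted p = 0.0251), with overlapping groups, and did not pass without wild-type replicate 1 (0.53, adjusted p = 0.0501), Bach2-deficient replicate 4 (0.71, adjusted p = 0.0501) or replicate 5 (0.67, adjusted p = 0.0585), each by the exact permutation test.

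Ctsc and Ctsh were the pair with no detected difference. Ctsc minus Ctsh was -0.07 ± 0.20 in wild type and 0.05 ± 0.12 in the Bach2-deficient group (SD, n = 5 each), a shift of 0.12 (exact permutation p = 0.325, adjusted p = 0.325). With the mean of the probe sets the shift was 0.63 (exact permutation, adjusted p = 0.00835), so it rests on which probe sets of Ctsc are read.

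The genes were also set against leukocyte references in the same arrays: Ptprc, which encodes CD45 of all leukocytes (1.65), the mean of 16 macrophage genes (1.11) and the mean of 14 T and NK cell genes (3.44), each value the reference's own log2 change. Of the macrophage genes 13 of 16 rose, with list means of 9.69 to 10.81 in wild type and 11.06 to 11.72 in the Bach2-deficient group. Of the T and NK genes 14 of 14 rose, with list means of 6.07 to 7.68 and 9.61 to 10.92, and 5 of them had wild-type means in the dimmest 30% of genes. Of 30 differences, 27 passed the exact permutation test after adjustment, 5 as larger and 22 as smaller changes than the reference. Each reference rose itself, so a gene with no change would also read as changing less. The median change over all genes was -0.06. The share of all genes that changed less than a reference was not computed. The part of probe set level in these differences was not tested.

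Ctsw and Cst7 changed more than Ptprc, by 2.53 and 1.83, and the other 8 genes changed less than Ptprc, by -0.54 for Ctsc and -0.65 for Ctsh to -1.48 for Ctsd and Ctsl. With the mean of the probe sets Ctsc no longer differed from Ptprc (-0.09, exact permutation, adjusted p = 0.624). Against the macrophage mean, Ctsb, Ctsd, Ctsl, Ctsk, Ctsz and Cst3 changed less, by -0.59 for Cst3 to -0.95 for Ctsd. The differences of Ctsc (0.0039) and Ctsh (-0.11) from that mean did not pass (exact permutation, adjusted p = 1.0 and 0.425). For Ctsc the mean of the probe sets gave 0.49 (exact permutation, adjusted p = 0.00882), and for Ctsh the fit without wild-type replicate 4 gave -0.21 (adjusted p = 0.0425, exact permutation).

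Against the T and NK mean, Cst7 differed by 0.04 (exact permutation, adjusted p = 0.961), with values of -0.37 ± 0.69 in wild type and -0.33 ± 0.21 in the Bach2-deficient group (SD, n = 5 each), and it ran from -0.21 to 0.27 under 13 other choices of probe set, normalization or arrays, with 0 passing. Ctsw changed more than that mean, by 0.73 (exact permutation, adjusted p = 0.00882), and by 0.53 to 0.86 under 13 other choices of probe set, normalization or arrays, each of which passed. The 14 genes behind the mean ran from 0.37 for Prf1 to 5.25 for Gzmb, so Ctsw (4.17) lay within their range. Fasl (4.75), Cd8b1 (4.71) and Cd8a (4.23) also rose more than Ctsw, and the remaining genes less. Prf1, Cd8b1 and Cd8a are named after their values were seen. The size of the 0.73 is not exact, because 5 of the 14 reference genes were dim in wild type. Without those 5, a choice made after seeing the data, the reference changed by 3.13, Ctsw differed from it by 1.04 (exact permutation, adjusted p = 0.00882) and Cst7 by 0.35 (exact permutation, adjusted p = 0.323). Ctsc changed less, by -2.33. The Ctsb, Ctsd, Ctsl, Ctsk, Ctsz, Ctsh and Cst3 differences ran from -3.28 to -2.45.

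**Figure D3:**
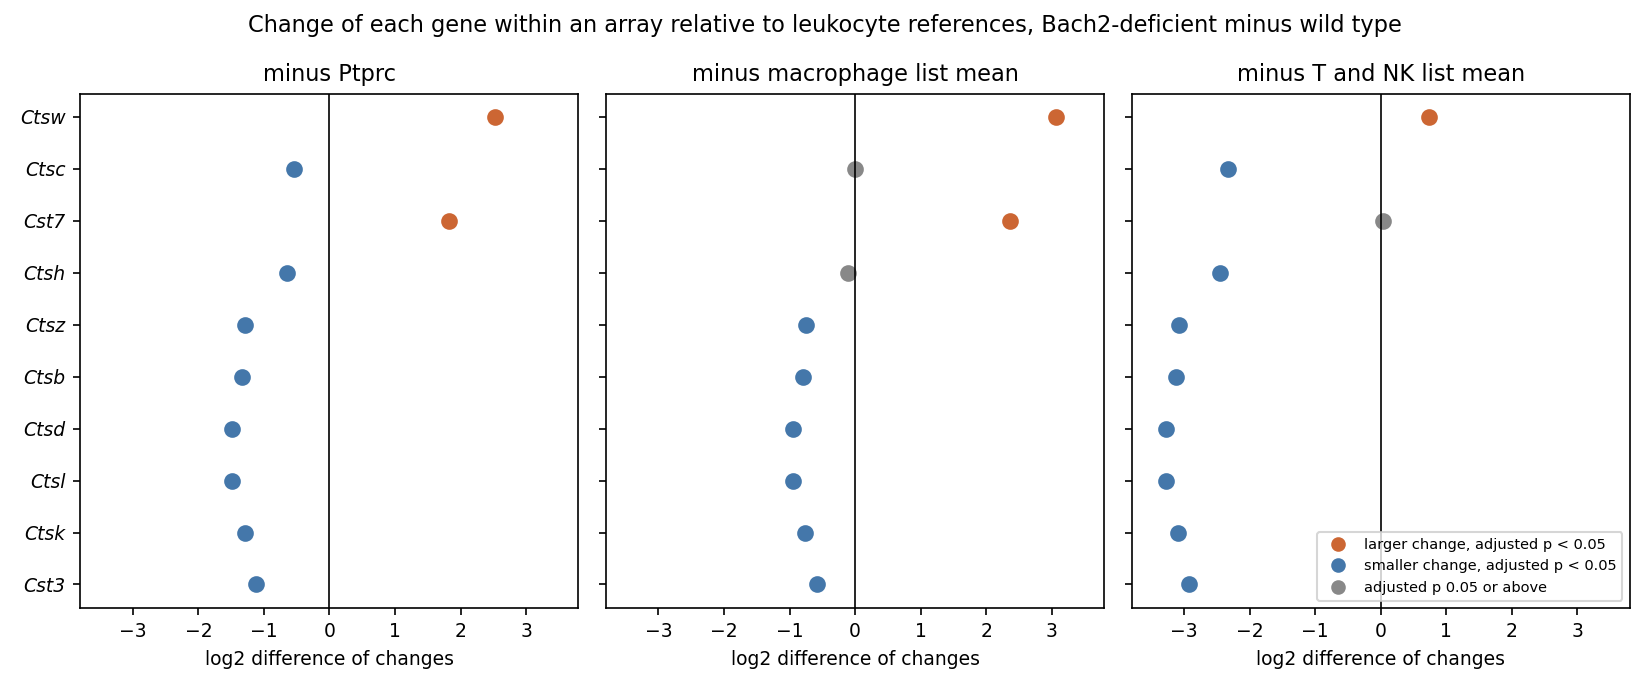
Each panel sets the 10 genes against 1 reference measured on the same arrays: Ptprc, the macrophage list mean or the T and NK list mean. The horizontal axis is the shift of the log2 difference, Bach2-deficient minus wild type, with orange for a larger and blue for a smaller change than the reference and grey for an adjusted exact permutation p of 0.05 or above. Ctsw lies to the right in all 3 panels (2.53, 3.07 and 0.73), Cst7 is at 0.04 against the T and NK mean, and Ctsc is at 0.0039 against the macrophage mean.

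The list of cathepsin C substrates was led by granzymes. Of 19 listed serine proteases that it activates or probably activates, 12 rose and 0 fell, with a median of 1.74. The median depends on which genes are counted, since 11 of the 19 were dim in wild type: it was 4.32 without the dimmest 30% of genes and 3.19 with plain _at probe sets. With the melanocyte covariate 1 of the 19 rose, with a median of 0.26, and with the Xist term the median was 3.62. All 9 granzymes rose, from 0.42 for Gzmm to 6.19 for Gzmd, and 8 of them without overlap. The Gzmm call did not pass in 6 of the 10 fits with 1 array left out: without wild-type replicate 2, 3 or 5 or Bach2-deficient replicate 2, 4 or 5. Gzmb, the main granzyme of killer cells, rose from 7.27 ± 0.94 to 12.52 ± 0.65 (SD, n = 5 each), by 5.25 (SE 0.46, limma adjusted p = 0.000153). Gzmd had a wild-type mean of 3.66, in the dimmest 30% of genes, where the size of a change is not exact. The remaining rises, named after their values were seen, were Mcpt8 of basophils (3.19), the mast cell chymase Cma1 (1.74) and the neutrophil protease Prtn3 (1.04). Elane, Ctsg, Mcpt1, Mcpt2, Mcpt4, Tpsab1 and Tpsb2 did not pass.

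Other cathepsins and cystatins mostly did not pass. Of 17 other cathepsins and related genes 3 rose and 0 fell, with a median of -0.07. As 10 of the 17 were dim in both groups, the median was 0.57 without the dimmest 30% of genes, and with the mean of a gene's probe sets 1 rose and 1 fell. Ctss, cathepsin S, which trims the invariant chain of MHC class II in antigen-presenting cells, rose by 0.86 (SE 0.16, limma adjusted p = 0.00368), from 12.75 ± 0.33 to 13.61 ± 0.18 (SD, n = 5 each). Ctso rose by 1.25 (SE 0.17), and Ctsa, a serine carboxypeptidase named after its value was seen, by 0.57 (SE 0.12). With the mean of the probe sets Ctso and Ctsa did not pass. The 9 rodent cathepsins of the placenta on the list, such as Ctsj and Ctsq, lay in the dimmest 30% of genes in both groups and 0 of them passed. Of 13 measured cystatin genes outside the 10, Cstb, the cytosolic inhibitor stefin B, rose by 0.24 (SE 0.08, limma adjusted p = 0.0453) and Csta1 fell by 0.50 from an already dim mean of 4.45. Neither call was firm: with 1 array left out Cstb passed in 1 of 10 fits, the one without Bach2-deficient replicate 1, and Csta1 in 4 of 10, those without wild-type replicate 1 or 4 or Bach2-deficient replicate 1 or 3. Cstb also did not pass without the dimmest 30% of genes or with median centring. The median was -0.04, and 10 of the 13 were dim in both groups.

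Lysosomal partners split. Of 33 measured genes 10 rose and 1 fell, with a median of 0.25. Lgmn, legumain, which cuts cathepsin precursors, rose by 1.37 (SE 0.22, limma adjusted p = 0.00179), and Cln3, a lysosomal membrane protein gene, by 1.92 (SE 0.23). Sort1, the sorting receptor sortilin, fell by 0.85 (SE 0.27, limma adjusted p = 0.0395), a call that held in 3 of 10 fits with 1 array left out, those without wild-type replicate 2 or 3 or Bach2-deficient replicate 1. The remaining 22 did not pass. In the class II processing list 11 of 12 genes rose, with a median of 1.45, H2-Ab1 by 2.11 and Ciita, the class II transactivator, by 2.81. Over all genes 16.3% rose, and the lists were not tested.

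**Figure D4:**
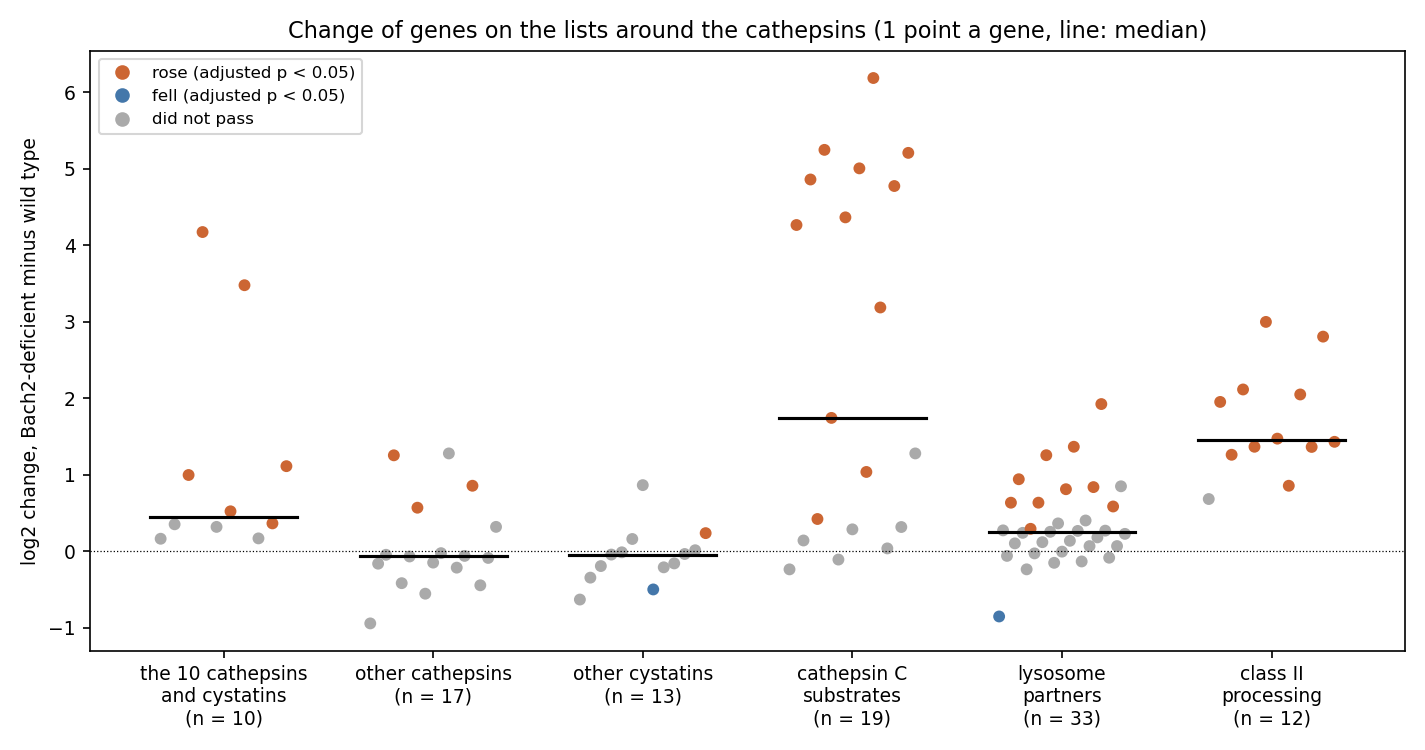
Each point is a gene and the vertical axis its log2 change, Bach2-deficient minus wild type, for the 10 cathepsins and cystatins and 5 lists around them, with the list median as a bar. Orange points rose, blue points fell and grey points did not pass. The medians are 0.44, -0.07, -0.04, 1.74, 0.25 and 1.45 from left to right.

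Genes whose values followed each cathepsin or cystatin from tumor to tumor were searched after the mean of each group was subtracted, by Pearson correlation over the 10 arrays among 12725 genes outside the dimmest 30%. They are the highest of that search, so their r is high by selection and carries no p. For Ctsw they were Rasgrp1, an activator of RAS in T cells (r = 0.964, Spearman 0.952), the T cell receptor segment Trav9d-3 (r = 0.958, Spearman 0.903) and the interferon-inducible GTPase Igtp (r = 0.954, Spearman 0.867). Rasgrp1 also stood among the closest 3 for Cst7 (r = 0.969, Spearman 0.915), with Jakmip1 (r = 0.9751, Spearman 0.964) and Dglucy (r = 0.973, Spearman 0.976). For Ctsc they were Shtn1 (r = 0.984, Spearman 0.842), the class II chain gene H2-Aa (r = 0.978, Spearman 0.939) and 2510039O18Rik (r = 0.978, Spearman 0.939).

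For Ctsh they were Ms4a6b (r = 0.973, Spearman 0.939), Aif1, a gene of macrophages (r = 0.958, Spearman 0.988), and Gpr160 (r = 0.956, Spearman 0.879). The closest gene was Hrh2 for Ctsz (r = 0.963, Spearman 0.939), Gpr108 for Cst3 (r = 0.962, Spearman 0.830), Mfsd14b for Ctsb (r = 0.984, Spearman 1.0), Plcb1 for Ctsl (r = 0.945, Spearman 0.964) and Cdipt for Ctsd (r = 0.884, Spearman 0.818). The closest to Ctsk was C1ra, a complement protease gene (r = 0.949, Spearman 0.976). The values compared share the same 10 arrays and their normalization.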

How the data were processed

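The authors deposited log2 expression values of 45101 probe sets, made with RMA and Partek per the submitters' processing notes, with versions not given in the sources used here. RMA gives all arrays the same distribution of probe intensities before probe sets are summarized, which largely removes a shift shared by all genes of an array. The probe set values themselves did not share exactly 1 distribution, with array medians of 5.799 to 5.884. No detection calls were used, and a level under 4.98 (the dimmest 30% of genes) leaves the size of a change inexact. Of the probe sets, 34945 had 1 symbol, 932 several, 9160 none and 64 were controls. Each gene was its brightest probe set (18193 genes). Probe sets ending in _a_at, _s_at or _x_at can match more than 1 transcript or gene. Genotype was fitted to all 10 arrays, with no covariate, in limma 3.58.1 (R 4.3.3; 2-sided, Benjamini-Hochberg over all genes or, for probe sets, all probe sets). Differences within arrays had exact 2-sided permutation tests, whose smallest p is 0.00794. Tested on simulated data of 18193 genes, 200 of them changed, the fit called 73% of changes of size 1 and 91% of size 2. Of its calls, 9.89% were unchanged genes. The fit was not tested with a larger share of changed genes, and 28.7% of genes were called here.

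The 10 genes and all lists were chosen with earlier results of these data known. Named were the 10 genes, Ptprc, Bach2, Xist and Ctss, for each list up to 2 called genes of smallest p in each direction, and the closest genes by correlation; exceptions are marked. Alternatives covered a gene's probe set, dim genes, normalization, moderation, array weights, replicate number, melanocyte markers, Xist and leaving out each array. Differences within arrays were run only with those of probe set, repeated quantile normalization and left-out arrays, apart from the T and NK mean without dim genes. The number of arrays limits the precision.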

Additional observations from a re-analysis of the deposited data

Results flagged for a closer look

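Dixon's ratio (the gap of an extreme sample to its nearest neighbour over the range of the group) was computed for 40 groups of 5, the 20 probe sets in each genotype. It passed 0.71, the 95% critical value, in 4, where chance gives about 1 in 20. Ctsc read 11.77 in Bach2-deficient replicate 1, below the other 4 (12.10 to 12.23), and its probe set 1446834_at read 10.26 there (others 10.998 to 11.129). In wild-type replicate 1, Cst3 read 12.37 (others 12.61 to 12.69) and the Ctsc probe set 1437939_s_at read 5.66 (others 6.47 to 6.80). All 4 are low values of a replicate 1. Without Bach2-deficient replicate 1 and without wild-type replicate 1, Ctsc and Cst3 still rose.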

How the results depend on the processing

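All 10 genes kept a positive change under every alternative that could give one; Ctsd, Ctsz and Cst3 had no plain _at probe set and so gave no value there. Ctsw and Cst7 passed in 19 of 20 alternatives, the exception being the melanocyte covariate (Ctsw 3.31, limma adjusted p = 0.0655; Cst7 2.26, limma adjusted p = 0.228). With that covariate, which itself differed between the groups by -0.59 (exact permutation p = 0.0159), 0 of the 10 genes rose, with 41 rises and 22 falls over all genes. With the Xist term, which leaves the comparison to 1 Bach2-deficient array, 3 of the 10 rose (Ctsw, Cst7 and Cst3), with 1030 rises and 387 falls over all genes beside 2962 and 2264; Ctsc (1.22, limma adjusted p = 0.0730), Ctsh (1.24, limma adjusted p = 0.0576) and Ctsz (0.50, limma adjusted p = 0.108) did not. With 1 array left out, 5 to 7 of the 10 rose, rises over all genes ran from 2270 to 3120, and falls ran from 1388 (without Bach2-deficient replicate 2) to 2807, with 1447 without replicate 4. With plain _at probe sets, 12 differences between the genes and 13 smaller changes than a reference passed, because fewer genes could be measured, beside 19 and 22 in the reported setting, 18 to 19 and 22 to 23 with 1 array left out, and 19 and 21 with the mean of a gene's probe sets. Cst3 minus Ctsb turned to -0.13 with the mean of a gene's probe sets.

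The replicate numbers of the titles are not said to pair tumors. Deviations of same-numbered tumors correlated at 0.00619 to 0.323, over 0.1 for 2 of 5 numbers, and 2 of 5 wild-type tumors correlated best with their own number. With the replicate block, 6 of the 10 genes rose, with 2842 rises and 2110 falls over all genes, and none of the 10 genes' calls changed.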

Other observations

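Marker lists of other cells that the dissociated tumors could hold gave these counts over the same fit. Over all genes 16.3% rose and 12.4% fell, and these lists were not tested. Of 9 dendritic cell genes 7 rose and 0 fell, of 7 eosinophil genes 5 and 0, of 9 mast cell genes 4 and 0, and of 7 neutrophil genes 2 and 0. Of 5 B cell genes and of 7 keratinocyte genes 0 passed. Of 12 endothelial genes 1 rose and 5 fell, and of 5 red cell genes 0 rose and 3 fell, with a median of -3.47 that was -2.09 with the mean of a gene's probe sets and -2.05 with plain _at probe sets. In the mast cell list 5 of 9 genes, and in the eosinophil list 6 of 7, had wild-type means in the dimmest 30% of genes.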
